A study of Mus musculus with 4 samples.

Results

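Krt7-positive cells of the Diff_MK library are mouse keratinocytes in which 2 or more molecules of Krt7 mRNA were counted. They were 798 of 6912 kept Diff_MK cells (11.5%, exact 95% interval 10.8 to 12.3), among 14087 kept cells in both RNA libraries of the study. A kept cell had at least 1000 detected genes and no more than 15% of its UMIs from mitochondrial genes, where a UMI is a unique molecular identifier that marks 1 captured mRNA molecule. The cells they are set against are the 4832 kept Diff_MK cells with 0 Krt7 UMIs, called Krt7-0 cells. A further 1282 cells had exactly 1 Krt7 UMI and belong to neither group. Membership was read from Krt7 counts in these same cells, so every difference between both groups describes cells picked by a measured value, and no test was made.

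The study combined single-cell RNA libraries with libraries of inherited DNA tags in a cultured line of mouse keratinocytes named MK. All samples carry the treatment label Dox, the usual short form of doxycycline, which switches on inducible transgenes, and tagged cells were sorted by GFP fluorescence before capture. There are 4 samples, each a group of its own: the RNA and the tag library labelled Diff_MK, and the RNA and the tag library labelled MK. The labels do not say what Diff stands for, nor how Diff_MK cells were handled differently, and with 1 library per group no difference has a replicate check.

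Keratins are the intermediate filament proteins of epithelia and assemble as pairs of a type I and a type II chain. Krt7 is a type II keratin of simple and glandular epithelia, such as ducts and urinary tract lining, and pairs there with type I partners such as Krt18 and Krt19. Interfollicular keratinocytes use Krt5 and Krt14 in the basal layer and Krt1 and Krt10 above it, while Krt15 marks basal cells and hair follicle stem cells. Krt7 in an epidermal line is therefore a simple-epithelial transcript in a stratified-epithelial cell type.

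In GENCODE vM21 on GRCm38, Krt7 (ENSMUSG00000023039) spans chr15:101411043-101430313 on the plus strand, in the type II keratin cluster that also holds Krt80 (chr15:101347444-101370162) and Krt8 (chr15:101996698-102004482), both on the minus strand. The type I genes Krt32 (chr11:100080848-100088226), Krt15 (chr11:100131758-100135928) and Krt19 (chr11:100140810-100148665) lie on the minus strand of chromosome 11, in the type I cluster. The bases upstream of the RefSeq start site of Krt7, which lies inside the GENCODE span, are shown because Krt7 is the gene that defines the cells. The RefSeq sequence below covers chr15:101412153-101412402 (GRCm38.p6, plus strand), with capitals marking matches to GCCNNNGGC, the letters searched for the AP-2 factors of epidermal and simple epithelia.
Krt7: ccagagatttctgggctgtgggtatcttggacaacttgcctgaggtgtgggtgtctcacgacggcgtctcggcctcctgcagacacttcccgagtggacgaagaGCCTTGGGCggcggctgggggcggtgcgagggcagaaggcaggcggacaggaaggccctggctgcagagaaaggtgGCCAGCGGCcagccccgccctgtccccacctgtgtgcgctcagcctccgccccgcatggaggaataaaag
GENCODE also places an antisense gene, Gm671, over part of these bases, and the sources used here do not state whether counting used strand. The matches begin 146 and 70 bases before the RefSeq start site. Such a match, on either strand of 250 bases, was present upstream of 15.4% of 27025 genes, so it is a common feature, and it does not show binding. Of the 15 genes of highest ratio below, 9 had an upstream sequence and 2 of these held a match (22.2%). Of the 12 genes of lowest ratio, 8 had a sequence and 3 held a match (37.5%). Matches to TGANTCA, the letters of AP-1, were upstream of 3 of the 9 (33.3%), 1 of the 8 (12.5%) and 7.82% of all genes. The letters GGAATG, those of TEAD factors, were upstream of 0 of the 9, 3 of the 8 (37.5%) and 14.4% of all genes.

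Krt7 was a low transcript carried by a minority of cells. The kept Diff_MK cells held 3765 Krt7 UMIs, or 36.2 CPM (UMIs scaled per 1e6 UMIs of the same cells), and the Krt7-positive cells held 65.9% of them. Just inside the threshold, 416 cells had exactly 2 UMIs, 182 had 3 and 200 had 4 or more, up to 16. The mean was 0.545 UMIs per cell with a variance 2.57 times the mean, and cell depth varied as well. At these counts a cell with 0 UMIs can still express Krt7. The Krt7-positive cells were not deeper by much: their median was 14502.5 UMIs and 3364 genes, against 14060 UMIs and 3463.5 genes in Krt7-0 cells, and the median mitochondrial share was 5.97% against 6.08%. They held more cells among the 6% with the highest doublet scores (83 cells, 10.4%) than Krt7-0 cells did (242 cells, 5.01%). Doublets were not removed, and leaving those cells out gave ratios of 5.72 for Krt8, 3.87 for Psca and 2.25 for Krt19, each at least as large as with them. No Krt7-positive cell shared its cell barcode with a kept MK cell.

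Krt7-positive cells had higher levels of the keratins Krt8, Krt32 and Krt19, of the surface protein Psca and of the corneodesmosin gene Cdsn, and lower levels of Igfbp3, Fst and Hmga2. For Fst and Hmga2 the lower level was not seen among cells of high Krt15. Of 5411 genes that reached 20 CPM in either group, 73 were higher in Krt7-positive than in Krt7-0 cells by 1.5-fold or more (1.35%), and 27 were lower by that factor (0.499%). Levels are CPM of UMIs summed over the cells of a group, and intervals are exact 95% intervals that cover counting error only. Sequencing 3′ ends counts molecules per gene whatever its length, so CPM can be compared between genes as molecules.

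Krt8, the type II keratin usually made with Krt18 in simple epithelia, had the highest ratio. It stood at 212 CPM in Krt7-positive and 41.7 CPM in Krt7-0 cells, a ratio of 5.08 (4.82 to 5.36). The molecules came from a minority of the cells: 257 of 798 Krt7-positive cells (32.2%) had a Krt8 UMI, against 674 of 4832 Krt7-0 cells (13.9%). At least 5 Krt8 UMIs were found in 136 Krt7-positive cells (17.0%) and 196 Krt7-0 cells (4.06%). Transcripts of Krt7 and Krt8 shared 1 of 7060 stretches of 30 bases, so few reads could have been assigned to both genes.
Krt18, the usual partner of Krt8, was rare, at 7.46 CPM in Krt7-positive and 5.41 CPM in Krt7-0 cells (ratio 1.38, 1.09 to 1.73). Krt19, the other type I partner and the smallest keratin, was abundant instead, at 2294 CPM and 1061 CPM (ratio 2.16, 2.13 to 2.19). Krt19 was therefore the main simple-epithelial type I keratin transcript in these cells, and 98.2% of Krt7-positive and 96.2% of Krt7-0 cells had a UMI of it.

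Over all 53 keratin genes in the file, 15 besides Krt7 reached 5 CPM in at least 1 group, where 2.14% of all 9150 such genes were higher by 1.5-fold or more and 1.07% lower. Of the 15 keratins, 8 were higher by that factor in Krt7-positive cells and 2 were lower. The higher ones besides Krt8 and Krt19 included Krt32, a hair cuticle keratin, at 78.3 CPM against 27.0 CPM in Krt7-0 cells (ratio 2.90). Krt80, a widely expressed type II keratin of differentiating epithelia, stood at 46.0 CPM and 16.4 CPM (ratio 2.81). Krt15 reached 1098 CPM and 632 CPM (ratio 1.74), Krt78 and Krt13 both had a ratio of 1.66, and Krt17, a keratin of follicles and of wounded skin, one of 1.5. The basal pair differed little over all cells, with Krt14 at 13362 CPM in Krt7-positive and 12685 CPM in Krt7-0 cells (ratio 1.05). Krt5 stood at 3549 CPM and 3034 CPM (ratio 1.17). Among cells with 5 or more Krt15 UMIs, however, Krt14 was lower in Krt7-positive cells, at 17481 CPM against 22558 CPM (ratio 0.775). Among cells with fewer, Krt14 stood at 11304 CPM and 10223 CPM (ratio 1.11). The 2 keratins lower by 1.5-fold or more were both of the wound-response set. Krt16 stood at 359 CPM and 574 CPM (ratio 0.625) and Krt6b at 25.7 CPM and 50.3 CPM (ratio 0.511). Their relative Krt6a had a ratio of 1.36, so the set did not move as one.

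Outside the keratins, Psca had the highest ratio. Psca is a GPI-anchored surface protein of prostate, bladder and stomach epithelium. It stood at 710 CPM in Krt7-positive and 193 CPM in Krt7-0 cells (ratio 3.69, 3.59 to 3.79). It had a UMI in 66.5% of Krt7-positive and 42.9% of Krt7-0 cells. Cdsn, corneodesmosin of the cornified layer, stood at 75.3 CPM and 25.7 CPM (ratio 2.93), and Cnfn, cornifelin of the cornified envelope, at 64.3 CPM and 24.0 CPM (ratio 2.68). Mt4, the metallothionein of stratified epithelia, had a ratio of 2.85. Aqp5, a water channel of glands, was at 30.6 CPM and 14.8 CPM (ratio 2.07). Ctla2a and Ctla2b, homologous protease inhibitors, had ratios of 2.42 and 2.74, and 21.4% of the 30-base stretches of Ctla2a also occur in Ctla2b, so the split between them is uncertain. The same holds for Sprr2i (ratio 2.05), which shares 18.2% of its stretches with Sprr2e. The other genes among the 15 highest were Muc15, a membrane mucin, Jcad, a junction protein, and Aldh3b2, an aldehyde dehydrogenase, with ratios from 2.03 to 2.25.

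Igfbp3 had the lowest ratio. Igfbp3, a binding protein for insulin-like growth factors, stood at 24.8 CPM in Krt7-positive and 66.7 CPM in Krt7-0 cells (ratio 0.372, 0.331 to 0.417). Fst, the activin antagonist follistatin, was at 62.1 CPM and 139 CPM (ratio 0.447). Hmga2, a chromatin protein of growing and embryonic cells, was at 102 CPM and 187 CPM (ratio 0.548). The proteoglycan gene Vcan had a ratio of 0.475, the metalloprotease inhibitor Timp1 one of 0.506 and the ETS factor Etv4 one of 0.542. Cstdc5, of the stefin A family, had a ratio of 0.416, and the remaining genes of the 12 lowest, apart from Crct1, were Krt6b, Sprr2k, Ctnnal1 and Ano1, at 0.511 to 0.572.

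**Figure D1:**
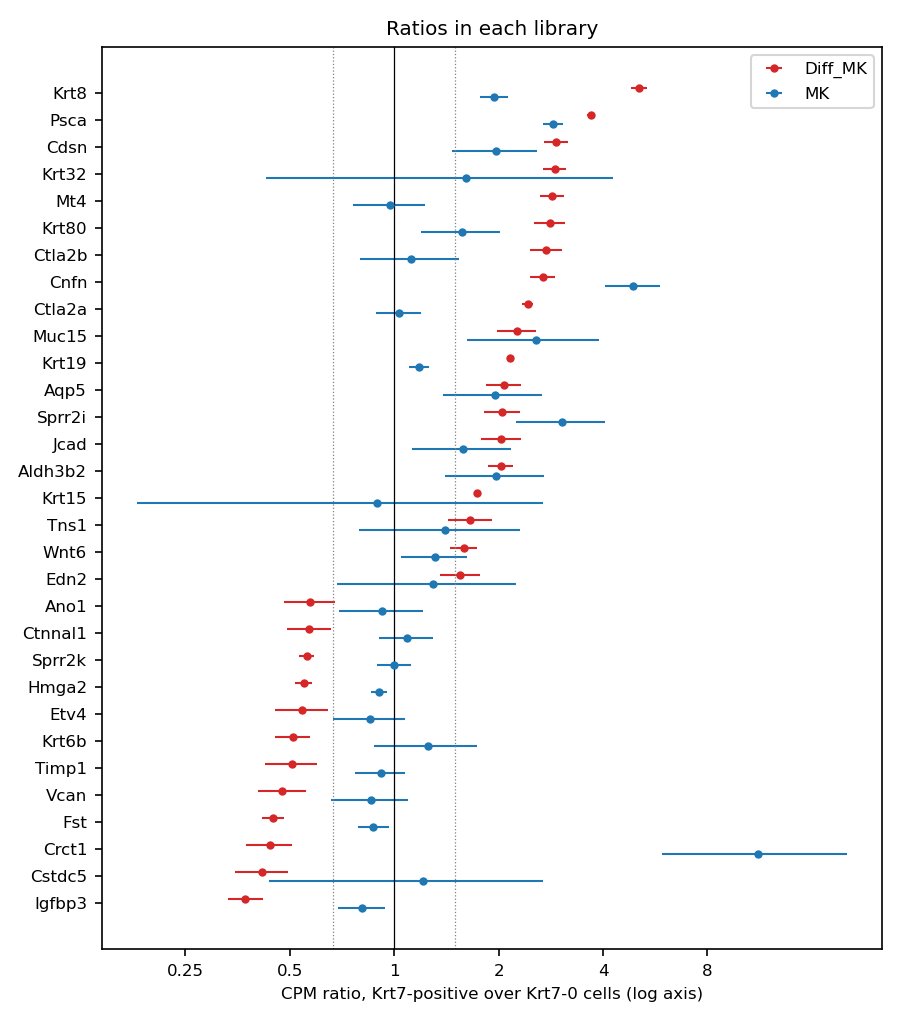
Ratio of CPM, Krt7-positive over Krt7-0 cells, on a log axis, for the 15 genes of highest and 12 of lowest ratio in Diff_MK and for Krt15, Tns1, Wnt6 and Edn2. Points are ratios of summed UMIs in Diff_MK (red) and MK (blue), bars are exact 95% counting intervals, and dotted lines mark 1.5-fold. Krt8 lies at 5.08 in Diff_MK and 1.94 in MK, Psca at 3.69 and 2.87, and Crct1 at 0.438 and 11.2.

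Crct1, a cornification gene, had a ratio of 0.438, but its molecules were concentrated in few cells. A cluster of 53 cells led by Lce genes, which encode late cornified envelope proteins, held 47 Krt7-0 and 3 Krt7-positive cells and 77.4% of the Crct1 UMIs of all Krt7-0 cells. Outside that cluster Crct1 stood at 10.8 CPM in Krt7-positive and 7.67 CPM in Krt7-0 cells, a ratio of 1.41. The cluster also held 97.4% of the Lce3c and 87.8% of the Calm4 UMIs of Krt7-0 cells. Outside it Calm4 stood at 1.11 CPM and 1.58 CPM, and Lce3c at 0.239 CPM and 0.353 CPM. The share of Krt7-positive cells in the cluster was 5.66% (1.18 to 15.7), an interval that holds the 11.5% of all kept cells, so the low ratio of Crct1 rests on this 1 cluster of few cells.

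The genes named with Krt7 as markers of these cells, Edn2, Wnt6 and Tns1, were only moderately higher. Edn2, the vasoactive peptide endothelin 2, stood at 22.7 CPM in Krt7-positive and 14.7 CPM in Krt7-0 cells (ratio 1.55, 1.35 to 1.76). Wnt6, a secreted Wnt ligand, was at 49.2 CPM and 31.0 CPM (ratio 1.59, 1.45 to 1.74), and Tns1, the focal adhesion protein tensin 1, at 19.4 CPM and 11.7 CPM (ratio 1.66, 1.43 to 1.92). None of the 3 was detected in 39.2% of Krt7-positive and 53.6% of Krt7-0 cells. All 3 were detected together in 26 Krt7-positive cells (3.26%) and 46 Krt7-0 cells (0.952%). Their ratios were smaller than those of Krt8, Psca, Krt32 and Krt19, but a UMI of Wnt6 was found in more Krt7-positive cells (39.6%, against 29.8% of Krt7-0 cells) than a UMI of Krt8 was.

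The 3 markers were among the leading genes of a small cluster. When cells were clustered without Krt7, a cluster of 79 cells, whose 10 leading genes were Cdkn3, Tns1, Edn2, Wnt6, Ctla2a, Eppk1, Ccn1 and the mitotic genes Nusap1, Ccnb2 and Ckap2, held 44 Krt7-positive cells (55.7%, 44.1 to 66.9), the largest share of the 12 clusters. These 44 are 5.51% of all Krt7-positive cells, and 35 of them also had 5 or more Krt15 UMIs. Inside the cluster, Krt7-positive cells had 62.5 CPM of Edn2, 138 CPM of Wnt6 and 60.8 CPM of Tns1, against 20.7, 44.8 and 17.3 CPM in Krt7-positive cells outside it. The 20 Krt7-0 cells of the cluster had 57.5 CPM of Edn2, 106 CPM of Wnt6 and 48.7 CPM of Tns1. These levels rest on 13, 24 and 11 UMIs. The cluster was formed from expression and the 3 genes are among its leading genes, so high levels inside it were built in for both groups. In Krt7-positive cells, Krt8 and Psca were lower inside the cluster, at 32.1 and 81.0 CPM, against 221 and 741 CPM outside. Without the cluster the ratios of Krt7-positive over Krt7-0 cells were 1.43 for Edn2, 1.46 for Wnt6 and 1.5 for Tns1, and that of Krt8 was 5.28. The cluster was not 1 clone, since its 42 assigned cells came from 22 clones with at most 4 cells each. Of its 79 cells, 17 were among those with the highest doublet scores, and the part of doublets in the cluster was not tested.

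Most Krt7-positive cells lay elsewhere. A cluster of 644 cells, led by Rin2, Clu and C2cd2, held 20.2% of them and was 25% Krt7-positive. A cluster led by Serpinb11, Krt78 and Krt6b was 18.5% Krt7-positive, one led by Lor, Tchh and Sirt1 16.2%, and one led by Prl2c2, Sprr2k and Prl2c3 3.87%. Among the 15 nearest neighbours of a Krt7-positive cell, in a space built without Krt7, 22.8% were Krt7-positive on average. That share was 12.9% around cells with 1 Krt7 UMI and 7.34% around Krt7-0 cells, against 11.5% of all kept cells. Krt7-positive cells thus had a larger share of Krt7-positive neighbours than Krt7-0 cells had, without forming 1 separate group.

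Levels of many of these genes moved in steps with the Krt7 count. Over cells with 0, 1, 2, 3 and 4 or more Krt7 UMIs, Krt8 stood at 41.7, 93.3, 164, 178 and 348 CPM. Psca stood at 193, 276, 538, 741 and 1050 CPM, and Krt19 at 1061, 1381, 1877, 2209 and 3269 CPM. Krt32, Krt80, Cdsn, Cnfn, Ctla2a, Upk1b, Aqp5, Edn2 and Tns1 were also higher at every step. Igfbp3 stood at 66.7, 55.7, 27.0, 24.5 and 20.4 CPM, and Fst, Hmga2, Vcan, Timp1 and the chemokine gene Cxcl5 were likewise lower at every step. Of the 15 genes of highest ratio, Mt4, Ctla2b and Sprr2i did not follow the pattern, and Sprr2i stood at 14.5, 10.5, 39.0, 24.1 and 15.3 CPM. Of the 12 of lowest ratio, Ano1, Sprr2k, Etv4, Krt6b, Crct1 and Cstdc5 did not. Wnt6 was highest at 3 UMIs, with Wnt6 at 59.0 CPM there and 46.4 CPM at 4 or more. Cells just outside the threshold, with 1 Krt7 UMI, lay between Krt7-0 cells and cells with exactly 2 for each gene plotted.

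**Figure D2:**
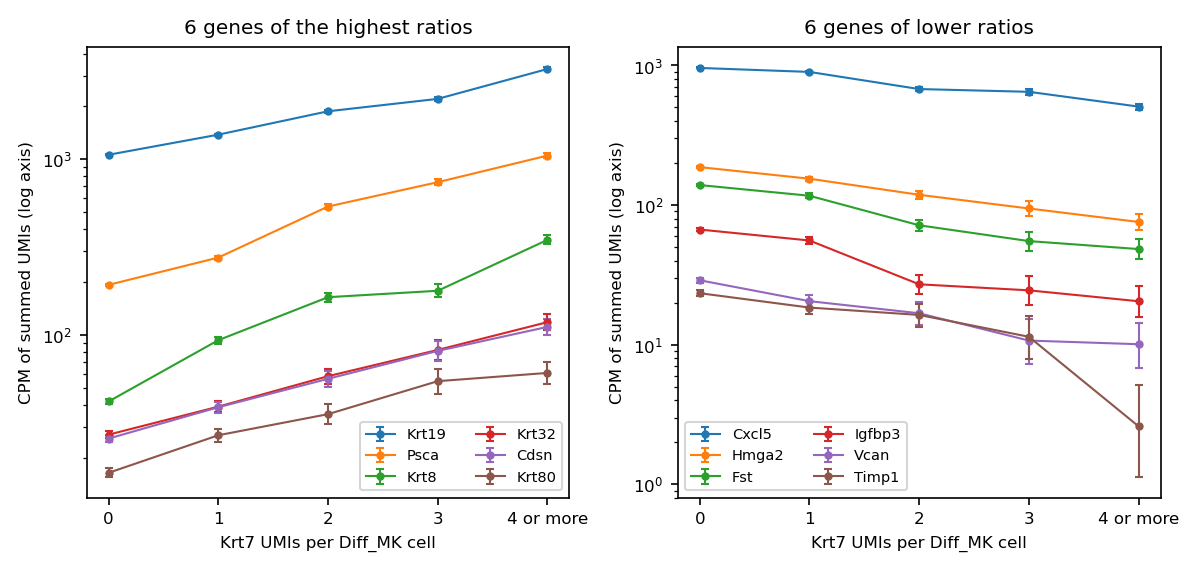
CPM of summed UMIs (log axis) of 6 genes with high and 6 with low ratios, over Diff_MK cells with 0, 1, 2, 3 and 4 or more Krt7 UMIs. Bars are exact 95% counting intervals, and each gene on the left is higher, and each on the right lower, at every step, with Krt8 between 41.7 and 348 CPM and Igfbp3 between 66.7 and 20.4 CPM.

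Krt15 overlapped with Krt7 in part. Of the 798 Krt7-positive cells, 314 also had 5 or more Krt15 UMIs (39.3%, 35.9 to 42.8), against 30.5% of cells with 1 Krt7 UMI and 1233 of 4832 Krt7-0 cells (25.5%, 24.3 to 26.8). With every cell thinned to 7500 UMIs the shares were 33.5% of Krt7-positive and 20.5% of Krt7-0 cells, after 42 and 503 shallower cells were left out. The groups there were still set by the full Krt7 counts. With Krt7-positive cells chosen after thinning, their share was 42.3%. Krt15 thus went with Krt7 but did not define the cells: 484 of 798 had fewer than 5 Krt15 UMIs. Seen from Krt15, the Krt7-positive share was 8.80% of cells with 0 Krt15 UMIs, 11.5% with 1 to 4, 13.5% with 5 to 14 and 17.8% with 15 or more. Cells with more Krt15 were shallower, at a median of 11261 UMIs with 15 or more and 15820 UMIs with 0. The part of depth in these shares was not tested.

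Both kinds of Krt7-positive cell shared the Krt8 and Psca difference but had different backgrounds. Among cells with 5 or more Krt15 UMIs, Krt8 stood at 98.1 CPM in Krt7-positive and 9.62 CPM in Krt7-0 cells, a ratio of 10.2. Among cells with fewer, it stood at 269 CPM and 49.8 CPM, a ratio of 5.41. Psca was at 869 CPM and 232 CPM in the cells of high Krt15 (ratio 3.75) and at 630 CPM and 183 CPM in the others (ratio 3.44). Krt80 had nearly the same ratio in both, 2.70 and 2.78.
Krt19 and Krt32 followed Krt15 as well as Krt7. Krt19 stood at 4288 CPM in Krt7-positive and 2945 CPM in Krt7-0 cells of high Krt15 (ratio 1.46), and at 1298 CPM and 591 CPM in the others (ratio 2.19). Krt32 stood at 160 CPM and 101 CPM with high Krt15 (ratio 1.59), and at 37.5 CPM and 8.63 CPM without (ratio 4.34). Edn2 was at 39.5 CPM and 38.7 CPM with high Krt15, so there it went with Krt15 and not with Krt7 (ratio 1.02).

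**Figure D3:**
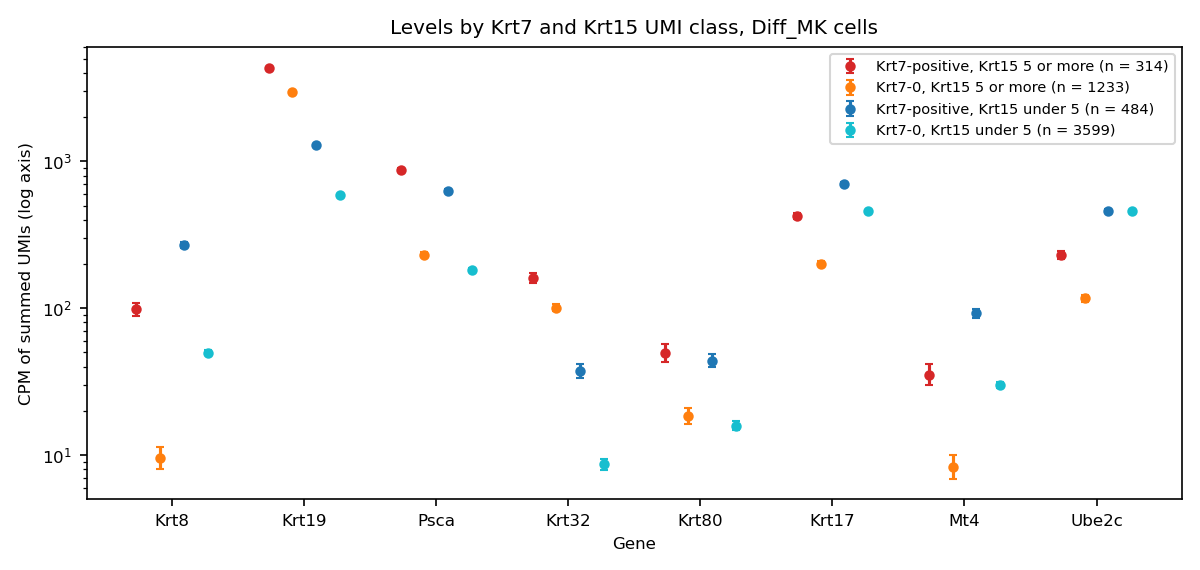
CPM of summed UMIs (log axis) of 8 genes in Diff_MK cells split by Krt7 (2 or more UMIs, or 0) and Krt15 (5 or more UMIs, or fewer), with exact 95% counting intervals. Krt8 is at 98.1 and 9.62 CPM in Krt7-positive and Krt7-0 cells of high Krt15, and at 269 and 49.8 CPM in those of low Krt15, while Krt19 is highest, at 4288 CPM, where both keratins are high.

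Several genes with low ratios turned with Krt15. Hmga2 stood at 134 CPM in Krt7-positive and 226 CPM in Krt7-0 cells with fewer than 5 Krt15 UMIs (ratio 0.592), but at 39.8 CPM and 31.0 CPM among cells of high Krt15 (ratio 1.28). Fst had ratios of 0.462 and 1.16 in the same order, and Cxcl5 0.753 and 1.15. Igfbp3 stayed lower in both, at 0.373 and 0.570, and Vcan at 0.495 and 0.596. Ube2c, a ubiquitin-conjugating enzyme of mitosis, was at 461 CPM in Krt7-positive and 458 CPM in Krt7-0 cells of low Krt15 (ratio 1.01), and at 229 CPM and 116 CPM in cells of high Krt15 (ratio 1.97).
Within the Krt7-positive cells, those with 5 or more Krt15 UMIs set against those with fewer had 186 of 5490 genes higher by 1.5-fold or more (3.39%) and 1360 lower (24.8%). The higher ones included Lgals7, a galectin of stratified epithelia, at 2351 CPM against 324 CPM, the epidermal protease gene Asprv1, at 139 CPM against 29.3 CPM, and Krt13 at 21.7 CPM against 2.5 CPM. The lower ones included the protease inhibitor Slpi, at 59.3 CPM against 623 CPM, and the chemokine genes Ppbp, at 19.8 CPM against 214 CPM, and Cxcl5, at 119 CPM against 884 CPM. More genes thus passed 1.5-fold between the Krt15 classes than between Krt7-positive and Krt7-0 cells. The Krt15 classes also differed in depth, which the Krt7 groups hardly did over all cells. In Krt7-positive cells, median counts were 11977 UMIs and 2779 genes with high Krt15, against 16524 UMIs and 3865.5 genes with low. Krt7-0 cells were somewhat shallower within each class, at medians of 10872 UMIs with high Krt15 and 15476 UMIs with low. The part of depth in the number of genes was not tested.

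Gene lists gave the wider picture, each summarised by the genes that reached 5 CPM in either group and their median log2 ratio of Krt7-positive over Krt7-0 cells. Over all 9150 such genes the median log2 ratio was -0.02, and 40.7% had a ratio above 1 and 59.3% one below. By 1.5-fold or more, 2.14% of them were higher and 1.07% lower. The list of simple epithelial keratins also holds the more widely expressed Krt80. Of its 4 measured genes, 3 (Krt8, Krt19 and Krt80) were higher by 1.5-fold or more and 0 lower, with a median of 1.30. The remaining gene, Krt18, had a ratio of 1.38. The granular and cornified envelope list was split, with 5 of 17 at least 1.5-fold higher (Cdsn, Cnfn, Klk7, Sprr2e and Tgm1) and 3 at least 1.5-fold lower (Crct1, Lce3c and Calm4), and a median of 0.38. Klk7, a protease that sheds cornified cells, stood at 8.73 CPM in Krt7-positive and 3.41 CPM in Krt7-0 cells, and Tgm1, the enzyme that crosslinks the envelope, at 20.3 CPM and 12 CPM. Of 18 epidermal and glandular transcription factors, 3 were at least 1.5-fold higher, namely Ehf, an ETS factor of glandular and stratified epithelia (11.8 CPM and 4.41 CPM, ratio 2.68), Zfp750, a differentiation regulator (35.2 CPM and 19.2 CPM, ratio 1.83), and Hopx (375 CPM and 201 CPM, ratio 1.87). Sox2 was lower, at 2.62 CPM and 8.14 CPM, and Trp63, the regulator of stratified epithelium, had a ratio of 0.859.

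Metabolic and growth lists differed by small amounts in many genes. Of 23 cholesterol synthesis genes, 22 had a ratio above 1 and 1 below, where 40.7% of all genes were above 1, with a median log2 ratio of 0.41, though only Insig1 passed 1.5-fold (ratio 1.55). The enzymes Hmgcs1, Sqle and Cyp51 had ratios of 1.33, 1.33 and 1.43. Summed over the list, cells of low Krt15 had 2115 CPM when Krt7-positive and 1483 CPM when Krt7-0, but cells of high Krt15 had 2804 CPM and 3179 CPM. Of 25 hypoxia and glycolysis genes, 23 had a ratio above 1 (median 0.32, and 0.04 in MK), with Ero1l, Bnip3 and Ndrg1 past 1.5-fold. Summed over this list, cells of low Krt15 had 13677 CPM when Krt7-positive and 11235 CPM when Krt7-0. In cells of high Krt15 the sums were nearly equal, at 14920 CPM and 14885 CPM. There Bnip3 had a ratio of 1.10 and Ero1l one of 1.32. Of 20 adherens and tight junction genes, 18 had a ratio above 1 (median 0.15), with the tight junction gene Cldn4 highest at 254 CPM and 186 CPM (ratio 1.37).
Of 30 G1/S genes, 29 had a ratio below 1 (median -0.29), and 23 of 30 G2/M genes did (median -0.11), where 59.3% of all genes were below 1. In both lists 0 genes were lower by 1.5-fold or more, next to 1.07% of all genes. Summed G1/S levels were 1500 CPM in Krt7-positive and 1700 CPM in Krt7-0 cells of low Krt15, and 591 CPM and 556 CPM in those of high Krt15. Summed G2/M levels were 3100 CPM and 3131 CPM in cells of low Krt15, and 1342 CPM and 780 CPM in those of high Krt15. G2/M levels were thus nearly equal with low Krt15, and higher in the Krt7-positive cells with high Krt15. The G1/S difference changed direction, but was small with high Krt15. Of the 314 Krt7-positive cells of high Krt15, 35 lay in the cluster of 79 cells with mitotic leading genes. The part of that cluster in the G2/M difference was not tested.
Of 17 basal keratinocyte genes, 13 had a ratio below 1 (median -0.22), against 59.3% of all genes, among them Itga6 (ratio 0.774), Itga3 (0.736) and Lama3 (0.698). Of 11 chemokine and cytokine genes, 5 were at least 1.5-fold lower (Cxcl1, Cxcl5, Il24, Csf3 and Tslp) and 2 at least 1.5-fold higher (Il18 and Il33). Among all genes at 5 CPM or more, 1.07% were lower and 2.14% higher by that factor. Of 16 Wnt pathway genes, a list without Wnt6, 0 were 1.5-fold higher and 1, Dkk3, was 1.5-fold lower, next to 2.14% and 1.07% of all genes. In the endothelin list both measured genes, Edn1 and Ece1, had ratios just below 1, at 0.998 and 0.846.

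**Figure D4:**
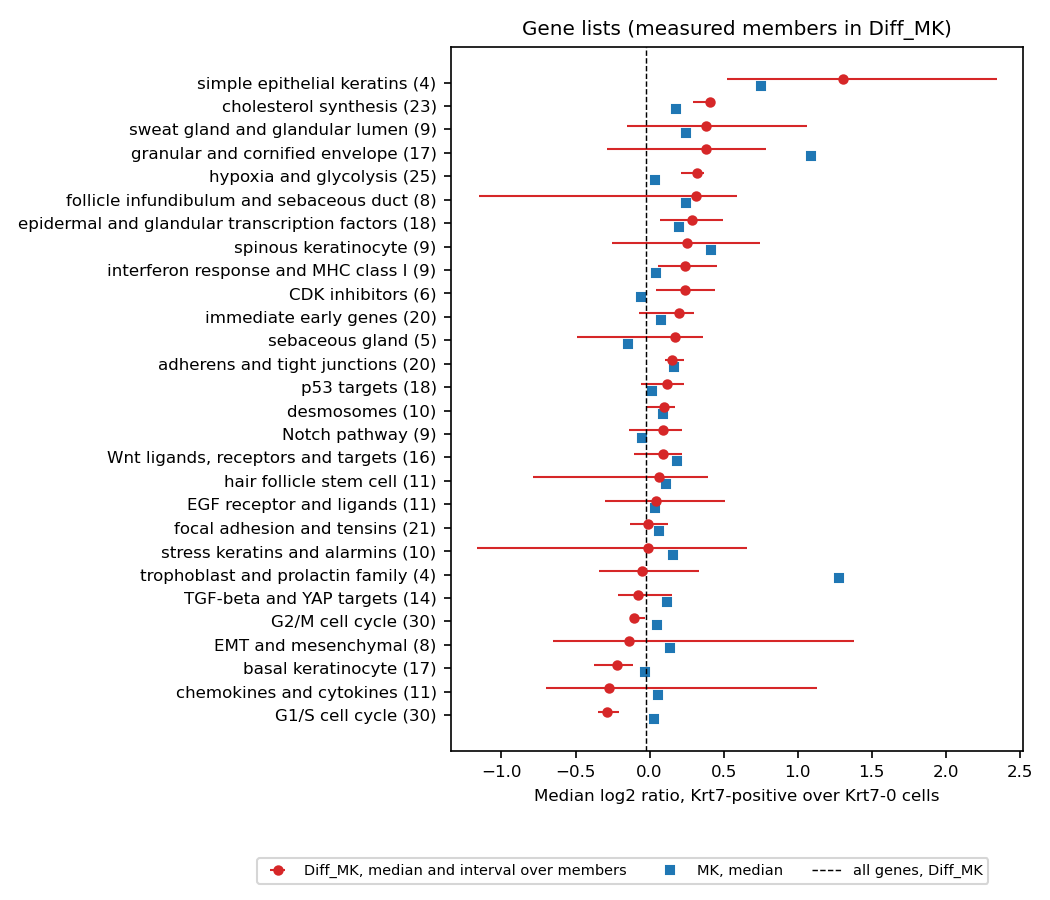
Median log2 ratio of Krt7-positive over Krt7-0 cells for gene lists with 3 or more measured genes, in Diff_MK (red, with an order-statistic interval over list members, or their range) and MK (blue). The dashed line marks all genes in Diff_MK at -0.02. The list of simple epithelial keratins, which includes Krt80, lies highest at 1.30 and G1/S genes lowest at -0.29 in Diff_MK.

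Markers of other cell types were low or absent, with a few exceptions. Of 8 melanocyte and 8 fibroblast genes, 0 reached 5 CPM, with summed levels of 2.94 and 0.238 CPM in Krt7-positive cells and 2.21 and 0.434 CPM in Krt7-0 cells. The immune list reached 6.03 CPM and 5.16 CPM in sum and the endothelial list 22.1 CPM and 25.6 CPM. Among 8 urothelial genes only Upk1b, a tetraspanin of the bladder lining, was measured, at 151 CPM in Krt7-positive and 81.9 CPM in Krt7-0 cells (ratio 1.84). Among 8 mesothelial genes, Muc16 had a ratio of 2.26 and Msln one of 1.18. No cell type without keratins was present in which background from free RNA could be read, so its part in low counts was not tested.

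Tags put the Krt7-positive cells in many clones, a readout that the choice of cells did not use. A tag was found in 717 of 798 Krt7-positive cells (89.8%) and 4186 of 4832 Krt7-0 cells (86.6%), and several tags in 28.0% and 21.6% of the tagged cells. Cells were assigned to a clone by their most abundant tag, when it had 3 counts or more and was 2 or more times as abundant as the second. The 543 assigned Krt7-positive cells fell into 82 clones, and the most frequent clone held 58 of them (10.7%, 8.21 to 13.6). The 3334 assigned Krt7-0 cells fell into 118 clones, with 423 (12.7%) in the most frequent one.

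The Krt7-positive share nevertheless differed between clones. Among 50 clones of 20 or more cells it ran from 0 to 38.5% with a median of 10.7%, against 11.4% of all assigned cells (10.5 to 12.4). Of these clones, 10 had an interval wholly above 11.4% and 8 wholly below. The highest share was 10 of 26 cells (38.5%, 20.2 to 59.4), followed by 17 of 51 cells (33.3%, 20.8 to 47.9). In contrast, clones of 58 and 36 cells had 0 Krt7-positive cells, with upper limits of 6.16% and 9.74%, and a clone of 125 cells had 2 (1.60%). The clone of highest share had 1 of its 26 cells at 5 or more Krt15 UMIs (3.85%) and 344 CPM of Krt8. The next had 24 of 51 such cells (47.1%) and 41.2 CPM of Krt8, so these clones of highest share differed in Krt15 and Krt8. Over the clones, the Spearman rank correlation of Krt7 CPM was 0.388 with Krt8 CPM and -0.0967 with Krt15 CPM. Clones are not replicates of a condition.

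**Figure D5:**
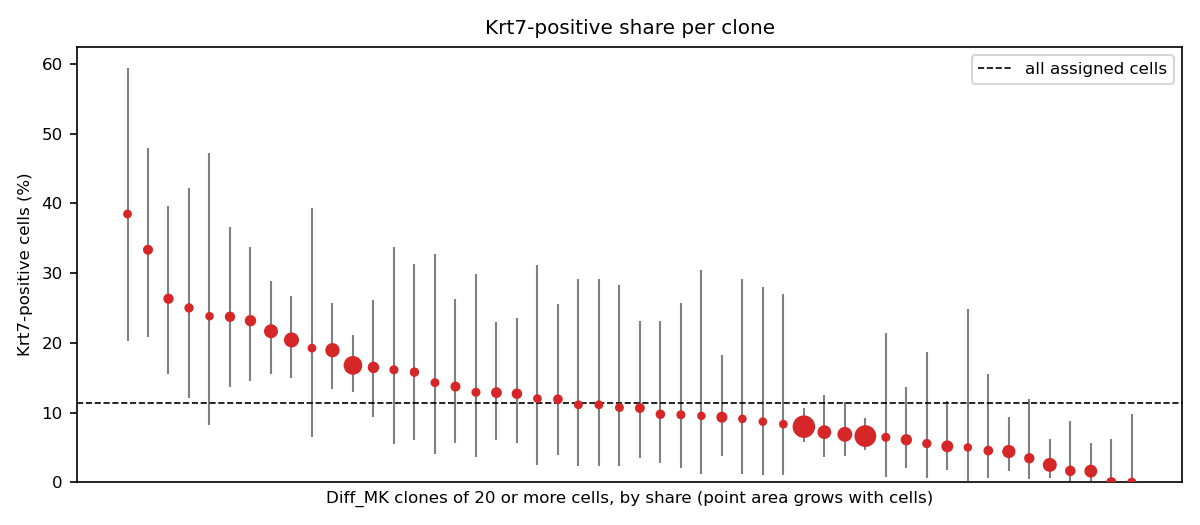
Share of Krt7-positive cells (%) in each of 50 Diff_MK clones of 20 or more cells, ordered by share, with exact 95% intervals over cells and point area growing with clone size. The dashed line is the share in all assigned cells, 11.4%, and the clones run from 38.5% to 0.

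Many of the differences had the same direction in most clones. In 24 clones with 5 or more Krt7-positive and 20 or more Krt7-0 cells, together holding 411 Krt7-positive cells, Krt19 was higher in the Krt7-positive cells of 23. Krt32 and Upk1b were higher in 22, Krt80, Wnt6 and Aqp5 in 21, Cdsn in 20, and Psca and Krt8 in 19. The markers Edn2 and Tns1 were each higher in 16 and lower in 8. Hmga2 and Cxcl5 were lower in 22 of the 24 clones and Igfbp3 in 21. Krt17 was higher in 11 and lower in 13, Ehf in 11 and 12, Sprr2i in 9 and 11, and Il33 in 7 and 11, so their higher level over all cells was not seen within most clones. Median levels over the clones were 61.9 CPM of Krt8 in Krt7-positive and 18.1 CPM in Krt7-0 cells, and 582 CPM and 148 CPM of Psca. Leaving out the clone with the most Krt7-positive cells gave 73 genes higher and 30 lower.

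The same count rule was applied to the MK library, which it was not made for. Krt7-positive cells were 11.5% of Diff_MK cells but 167 of 7175 kept MK cells (2.33%, 1.99 to 2.70), and Krt7 stood at 36.2 CPM in Diff_MK and 11.1 CPM in MK. The 167 MK cells were somewhat deeper than the 6152 Krt7-0 MK cells, at a median of 17092 UMIs against 15396.5 UMIs. None of the 167 had 5 or more Krt15 UMIs (0%, upper limit 2.18%), so the overlap with Krt15 could be seen only in Diff_MK. At a level of 0.994 CPM in Krt7-positive and 1.11 CPM in Krt7-0 MK cells, Krt15 was scarce in the whole library.

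Of 5646 genes that reached 20 CPM in MK, 37 were higher in Krt7-positive cells by 1.5-fold or more (0.655%) and 7 were lower (0.124%). Of the 73 genes higher in Diff_MK, 46 could be compared in MK and 37 of those had an MK ratio above 1, against 47.1% of all 5175 genes compared in both. Both lists held 12 genes in common, 16.4% of the 73 and 32.4% of the 37, where 0.657% of the 5175 genes were higher in MK by 1.5-fold or more. They are Krt8, Krt80, Psca, Cnfn, Sprr2e, Clic3, Mal, Agrp, Cryab, Serpinb1a, Lmo7 and Ndrg1. Krt8 stood at 165 CPM in Krt7-positive and 85.2 CPM in Krt7-0 MK cells (ratio 1.94), and Psca at 321 CPM and 112 CPM (ratio 2.87). Cnfn was at 44.7 CPM and 9.16 CPM (ratio 4.88), a larger ratio than in Diff_MK. Krt19 had a ratio of 1.18 in MK, Mt4 0.971 and Ctla2a 1.03, all short of 1.5-fold.

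The genes lower in Diff_MK did not recur at that size in MK. Of the 27, 21 could be compared, 11 had an MK ratio below 1, against 52.9% of all genes compared, and 0 were at least 1.5-fold lower in MK. Igfbp3 had an MK ratio of 0.809, Fst 0.871 and Hmga2 0.905. Krt16 went the other way, at 317 CPM in Krt7-positive and 172 CPM in Krt7-0 MK cells (ratio 1.84), as did Lcn2, an iron-binding secreted protein, with a ratio of 2.43 in Diff_MK and 0.482 in MK. Of 15 granular and cornified envelope genes measured in MK, 10 were at least 1.5-fold higher in Krt7-positive cells and 1 lower, with a median log2 ratio of 1.09, where 1.92% of 9299 genes were higher and 1.85% lower. Sprr1a was at 109 CPM and 25.8 CPM there, and Sprr2d at 402 CPM and 143 CPM. The G1/S median was 0.03 in MK. With 1 library per label, differences between Diff_MK and MK cannot be told apart from differences between 2 preparations.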

How the data were processed

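The authors deposited raw UMI counts for each gene and cell, not normalized, and raw counts for each tag and cell. Cell Ranger 6.1.2 and mm10 are named in the submitters' processing notes, and libraries used 10x 3′ v3 chemistry with tags by a CITE-seq-type protocol, per the labels' protocols. How tags were counted is not given in the sources used here, and 1 entry named unmapped was left out. Of 7569 Diff_MK barcodes 657 were removed by the filter, and of 7780 MK barcodes 605, which left 103885150 and 115181759 UMIs. Of the kept barcodes 9 occur in both libraries.

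The members and the 36 gene lists were chosen with earlier results of these data known. UMIs were summed per group of cells and scaled to CPM. Ratios carry exact conditional binomial intervals and shares Clopper-Pearson intervals, at the 95% level. They cover counting error only, and no p-value was computed, since cells of 1 library are not replicates. Genes counted reached 20 CPM in either group and had a ratio of 1.5 or more, or 0.667 or less. Named genes are the markers and partner keratins, the 15 highest and 12 lowest ratios after adding 5 counts (without predicted, mitochondrial and ribosomal protein genes), the most abundant and the 2 most different members of each list, and list members that describe a count. Other keratins, Krt7-positive cells split by Krt15, Sprr1a, Sprr2d, Zfp750, Hopx, Klk7, Tgm1, Itga6, Itga3, Trp63 and cluster genes were named after their values were seen. Leiden clusters (resolution 0.5, 15 neighbours, 30 components of 2000 variable genes without Krt7) used scanpy 1.11.5, and doublet scores came from Scrublet. Clusters keep numbers or leading genes as names. A tag was called where it had 3 counts or more, making up 10% or more of the tag counts of that cell. In Poisson counts simulated for 5246 genes from the Krt7-0 profile of Diff_MK, 94.8% of intervals held the true ratio. Among them, 100% of genes changed 2.5-fold and 0% of those changed 1.2-fold passed 1.5-fold. Such counts follow the error model of the intervals, so they check the calculation and not the spread between cells. Of 9523 genes, 9519 were found in GENCODE vM21 by identifier. Alternatives varied the filter, doublets, depth, Krt7 threshold, comparison cells, weighting, scaling, fold, count minimum, clone call, Krt15 class and clusters.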

Additional observations from a re-analysis of the deposited data

How the results depend on the processing

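The share of Krt7-positive cells was 5.91% when cells were thinned to 7500 UMIs, which left 371 of them, so it depends on depth. Genes at least 1.5-fold higher, 73 as reported, numbered 111 after thinning, 123 with 3 or more Krt7 UMIs, 14 with 1 or more, 15 at 2-fold, and 988 of 13853 with a minimum of 10 counts in place of 20 CPM. Genes at least 1.5-fold lower, 27 as reported, numbered 364, 110, 4, 5 and 1064 under the same settings in that order, and 65 among cells of 10000 to 25000 UMIs. In MK, thinning left 48 Krt7-positive cells and gave 510 genes higher and 463 lower, against 37 and 7. The share with 5 or more Krt15 UMIs was 44.0% with 3 or more and 33.9% with 1 or more Krt7 UMIs. Under 14 settings, the 55 named genes past 1.5-fold gave 769 values, of which 254 lay outside the counting interval of the gene. The ratio of Krt19, for example, ran from 1.46 to 2.68. Of 392 list medians, 34 lay outside the interval over members. No count of list directions is given, since some medians lay close to 0 and summed cholesterol synthesis levels changed direction between the Krt15 classes. Of the 769 gene values, 15 lay on the other side of 1. Crct1 had ratios of 1.68 under the stricter cell filter, 1.22 at 10000 to 25000 UMIs, 20.1 among cells of high Krt15 and 1.41 without the Lce cluster, an alternative chosen after seeing the data. After thinning, Sprr2i had 0.911 and Il33 0.809. Among cells of high Krt15, Fst had 1.16, Hmga2 1.28, Itga2 1.25, Krt13 0.986, Calm4 1.13, S100a9 1.94, Cdh2 1.03, Cxcl5 1.15 and Il33 0.505. Apart from the Lce cluster, which holds most Crct1 and Calm4 molecules of Krt7-0 cells, the causes were not tested. No paired analysis was possible because each group is 1 library and cells of 1 library carry no replicate number.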
